A study of Pinus pinaster with 12 samples.

Results

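The enrichment of m6A over input was described in the ammonium-treated roots of maritime pine (Pinus pinaster) seedlings. These are 6 of the 12 libraries of the study, 3 immunoprecipitates (IP) taken with an antibody against m6A and 3 inputs, which are fragmented polyadenylated RNA that was not precipitated. Members were taken by their labels alone: all 253670 transcript IDs of the count table, and all 6589 peaks of the list that the authors deposited for ammonium, on 6075 IDs. The seedlings, of the Segura-Alcaraz provenance, were 1 month old and were grown in vermiculite. After 3 days of acclimation they received 80 mL of 3 mM NH4Cl, and roots were collected 24 h later. The other 6 libraries, 3 IP and 3 inputs of seedlings given 80 mL of water in the same way, serve here only for comparison. The treatment was run 3 independent times, but the labels tie no library number to a run and do not say how many seedlings entered a library, so the p-values measure the spread between 3 libraries of a group. The files pair no transcript ID with a gene name, so the root label was not checked against marker genes and transcripts are named by their IDs.

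N6-methyladenosine (m6A) is a methylated base inside messenger RNA. In Arabidopsis it is written by a complex whose catalytic subunits are MTA and MTB, read by YTH-domain proteins of the ECT family and removed by ALKBH demethylases, and its loss disturbs development, root growth included. There the mark lies mostly near the stop codon and the end of the transcript. In the assay used here, RNA fragments that carry the mark are pulled down, so that methylated transcripts gain reads relative to the unprecipitated RNA.

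The ammonium IP libraries held 65539363 to 73185176 counts and the inputs 74257255 to 79703198. Reads of the IP were concentrated on fewer transcripts, except at the lowest counts. The 1000 most abundant transcripts of each library took 35.3%, 36.0% and 35.3% of the reads in IP replicates 1, 2 and 3, and 25.1%, 24.8% and 24.6% in the inputs. All 3 IP libraries lay above all 3 inputs, by a mean of 10.7 percentage points (p = 0.1 in an exact two-sided permutation test, which cannot go lower with 3 against 3). At least 10 reads were found at 94004, 99769 and 95003 transcripts in the IP and at 110254, 112736 and 116148 in the inputs (p = 0.1 in the same exact test). At least 1 read was found at 150371, 160684 and 150098 in the IP and at 159237, 165089 and 168062 in the inputs, and here the groups overlapped (p = 0.2 in the same exact test). For 10 reads, with every library thinned to 65539363 reads, the means were 94610 and 108328. Pairs of libraries of 1 group differed by more than sampling noise, with a chi-square per degree of freedom of 12.6 to 27.4, so each library was counted as a replicate.

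Most transcripts took unequal shares of the IP and the input. Of 123957 transcripts that passed the filter on low counts, 107055 were called (86.4%, edgeR's quasi-likelihood test, adjusted p under 0.05), of which 46925 were higher in the IP (37.9%) and 60130 lower (48.5%). The log2 IP/input had a median of -0.74 and quartiles of -3.61 and 2.41. At 16-fold or more, the higher side held 19823 called transcripts and the lower side 26506. At least 4-fold higher were 34575. The 12396 transcripts with the lowest ammonium inputs were all called higher, each at least 4-fold, and 5514 of them had no input read. With so few input reads they passed the filter through the IP and had to be higher there. In the same way, a transcript with few IP reads passed through the inputs and had to be lower. These parts of the counts are a description only. The ratio is relative: scaled by library size alone, the median of all transcripts was -1.28, so each value below is to be read against that of all transcripts. The spread between the libraries was small beside these ratios, with a biological coefficient of variation of 0.275 and a median standard error (SE) of 0.51 of the log2 ratio.

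Some transcripts were seen in 1 kind of library only. There were 5423 with at least 10 reads in each IP and none in the 3 inputs. Of these, 433 had a listed peak, against 4922 of all 46925 transcripts called higher (10.5%). In the other direction, 7744 had at least 10 reads in each input and none in the 3 IP libraries. None of these had a peak, which was fixed in advance, since a peak needs IP reads. The water inputs also lacked reads at 63.5% of the first group, and the water IP at 30.8% of the second.

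Transcripts with a listed peak were mostly higher in the IP, and those with 3 or more peaks stood highest. The list gave 1 peak to 5634 transcripts, 2 peaks to 392, and 3, 4, 5 and 6 peaks to 33, 9, 6 and 1. All but 6 of the 6075 passed the filter, and these 6 had 1 peak each. The median log2 IP/input of transcripts without a peak, from IP and input of the same number, was -0.97, -0.97 and -1.04 for replicates 1, 2 and 3. With 1 peak it was 2.13, 2.00 and 2.09, and with 2 peaks 2.17, 2.02 and 2.10, so that these classes overlapped. With 3 or more peaks it was 3.46, 2.97 and 2.97, above both.

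The share of transcripts called higher was 80.6% with 1 peak (4537 of 5628), 86.0% with 2 (337 of 392) and 98.0% with 3 or more (48 of 49), against the 37.9% of all tested. Called lower were 9.83%, 5.36% and 0 of the same classes, against 48.5%. The list was called on the libraries that were counted, and these shares describe it without testing it.

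The water libraries did not enter the ammonium list. There the median log2 IP/input was -0.18, -0.93 and -0.67 without an ammonium peak and 1.69, 2.00 and 2.10 with 1 peak. With 2 peaks it was 1.77, 2.10 and 2.09, which overlapped the values for 1 peak, and with 3 or more it was 2.95, 4.06 and 2.85, above all others. The distance between transcripts with 1 peak and those without was 3.07 ± 0.08 in ammonium and 2.52 ± 0.58 in water (SD, n = 3). Replicate 1 of water stood apart at 1.86, and replicates 2 and 3 had 2.93 and 2.77 where ammonium had 2.97 to 3.13. For 3 or more peaks the distance was 4.12 ± 0.27 in ammonium and 3.88 ± 0.98 in water (SD, n = 3). The transcripts were chosen by peaks in ammonium, so the difference between treatments was not tested on them.

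In reads, the transcripts with a peak took 14.7%, 14.6% and 14.5% of the ammonium inputs and 33.4%, 32.9% and 33.1% of the ammonium IP. The 2 kinds of library were 18.5 percentage points apart, which the choice of transcripts by their peaks favours and which was therefore not tested. Transcripts with 1 peak went from 13.5% ± 0.09 to 30.9% ± 0.28, those with 2 from 0.985% ± 0.009 to 1.91% ± 0.04, and those with 3 or more from 0.0737% ± 0.0054 to 0.340% ± 0.036 (SD, n = 3).

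**Figure D1:**
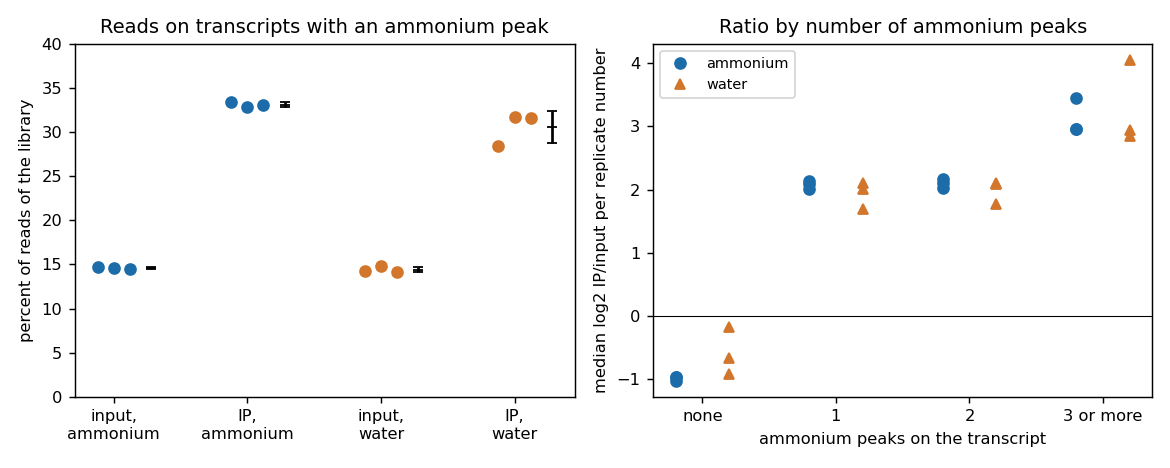
Left, percent of reads on transcripts with an ammonium peak in each of the 12 libraries (points, with mean and SD beside them). Right, median log2 IP/input of transcripts by their number of ammonium peaks, 1 point per replicate number in ammonium (circles) and water (triangles). The ammonium IP libraries lie at 32.9% to 33.4% and the inputs at 14.5% to 14.7%, and the points for 3 or more peaks lie above those for 1 and 2.

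The transcript with the most peaks, pp_206359, held 6 peaks in ammonium and 1 in water. Its level was 44.9, 64.6 and 12.6 CPM (the count scaled to a common library total) in IP replicates 1, 2 and 3 and 6.61, 13.0 and 12.1 in the inputs. IP replicate 3 lay within the range of the inputs, and the log2 fold change was 2.50 (SE 0.57, adjusted p = 0.0038 in edgeR's quasi-likelihood test). Its 6 peaks in the authors' deposited table lay at positions 1940 to 2786, 2885 to 3333, 3432 to 3681, 3830 to 5173, 5272 to 5969 and 6267 to 6367 of the transcript, with fold enrichments of 3.50 to 6.50. The water list gave the same transcript 1 peak at 1891 to 6068, which is 4178 bases wide and has a fold of 17.7.

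A further 3 transcripts were named as the most abundant of their kind. Without a peak, pp_78492 had 1535, 1467 and 1587 CPM in the IP. Its inputs, at 174, 158 and 163 CPM, did not overlap these (log2 fold change 3.76, SE 0.11, adjusted p = 1.64e-09, edgeR). Also without a peak, pp_94288 had 295, 268 and 278.5 CPM in the IP, far below its inputs at 2287, 2120 and 2155 CPM (log2 fold change -2.42, SE 0.10, adjusted p = 8.2e-09, edgeR). With a peak, pp_209534 had 375, 441 and 496 CPM in the IP, again below its inputs at 1373, 1441 and 1689 CPM (log2 fold change -1.24, SE 0.13, adjusted p = 5.65e-06, edgeR). Its only peak, at positions 248 to 396 with a fold of 5.21, was in the ammonium list and not in the water list, so a transcript can hold a listed site and still take fewer reads in the IP as a whole.

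The relation of the ratio to abundance depended on which libraries ranked the transcripts. Transcripts were ranked into 10 bins of equal size by edgeR's average log2 CPM over the 6 ammonium libraries, called the 6-library mean below. Those of the top bin had a median log2 IP/input of 1.01, and 60.9% were called higher. In plain mean CPM the top bin began at 14.3 and bin 9 reached 20.6, so neighbouring bins overlap on that scale. Transcripts of bins 1 to 8 had medians of -1.70 to -0.96, and bin 9 had -0.25. Set against the median of all transcripts, the lowest bin was at -0.96, but at 0.29 with library size scaling and at 0.88 without a filter. It was at -0.27, -0.33 and -0.49 without IP replicate 1, 2 or 3. Ranked instead by the water inputs, which do not enter the ratio, the top bin (at least 18.2 CPM) had a median of -1.18, with 30.9% called higher and 60.3% lower. The lowest bin then had a median of 7.22, where 5321 of 12396 transcripts had no read in the water inputs. A transcript of this bin that also had few ammonium input reads passed the filter through the IP and had to be higher there. In the bin 12317 were called higher and 26 lower, and its values are a description only. Bins 4 to 8 of the same ranking had medians of -2.66 to -1.72. CPM is not per length, since transcript lengths are not given in the files, so a bin mixes long and abundant transcripts.

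Transcripts with a peak stood above those without one in the bins of the 6-library mean. A peak needs IP reads and the mean includes the IP, so in a bin of low mean a transcript with a peak has to be high in the IP, and the values of these bins are a description only. In the top bin the medians were 1.66 with a peak and 0.69 without, and 81.1% and 55.0% were called higher. In bin 5 they were 5.80 and -1.25. Few transcripts of low abundance had a peak: 0.00807% in bin 1, 2.53% in bin 5 and 22.6% in bin 10. In the top bin 10.1% of the transcripts with a peak were called lower, against 37.6% of those without and 31.4% of the whole bin.

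**Figure D2:**
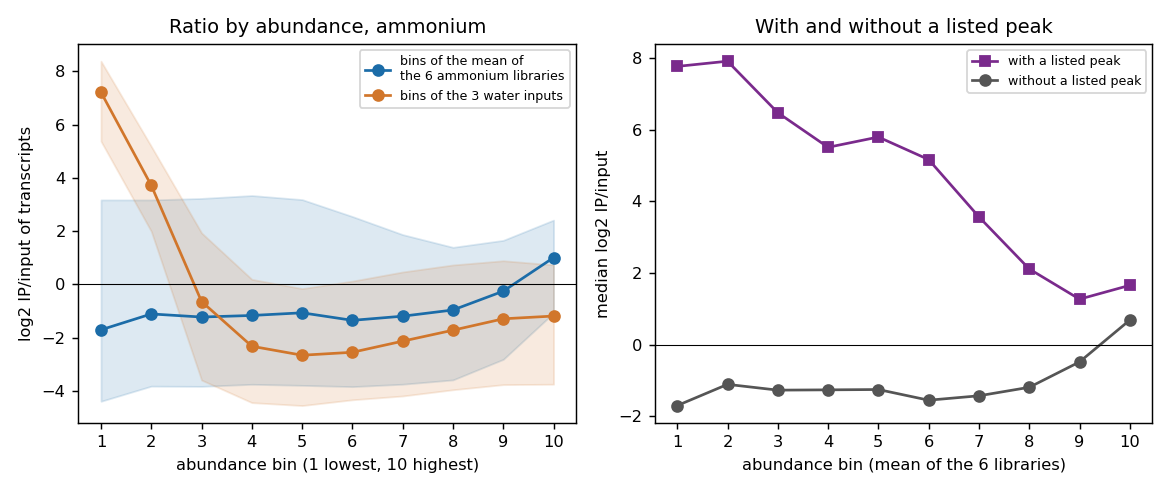
Left, median log2 IP/input in ammonium (points) with quartiles (bands) in 10 abundance bins, ranked by the mean of the 6 ammonium libraries or by the 3 water inputs. Right, medians of transcripts with and without a listed peak in the bins of the 6-library mean. The 2 rankings give the top bin medians of 1.01 and -1.18, and the line with a peak lies above the line without one, which the ranking by a mean that includes the IP fixes at low abundance.

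The share of transcripts with a listed peak rose with the level in the IP. With a mean IP level under 1 CPM, 0.459% of the transcripts had a peak. The share was 7.52% at 1 to 10 CPM, 20.2% at 10 to 100 and 43.0% at 100 or more (818 of 1902). Along the ratio, 0.955% of transcripts called lower and 3.39% of those not called had a peak. The share was highest just above these and fell from there: 14.4% of transcripts called higher by less than 4-fold had a peak, 11.4% of those 4 to 16-fold higher and 7.42% of those 16-fold or more. Of all 46925 higher transcripts, 10.5% had a listed peak. Within a level the order along the ratio changed: at 1 to 10 CPM the share with a peak was 3.18% of the transcripts called lower, 7.62% of those higher by less than 4-fold and 12.3% of those 16-fold or more. At 100 CPM or more in the IP, transcripts called lower had a peak in 8 of 37 cases, those called higher by less than 4-fold in 49.0% and those 16-fold or more in 35.5%. The reads available in the IP differ between these levels by their definition, and the part of depth in the listing was not tested.

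**Figure D3:**
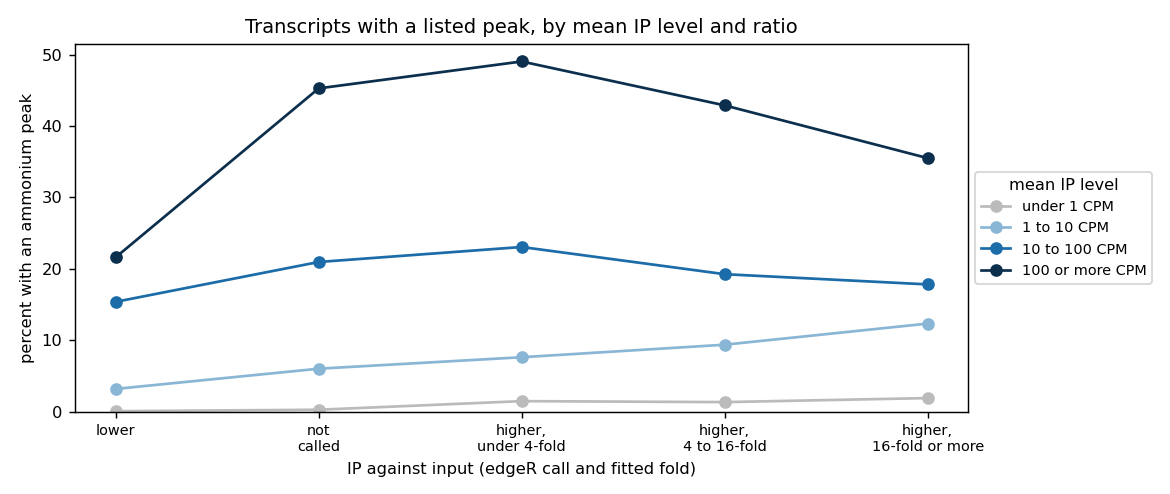
Percent of transcripts with an ammonium peak by edgeR call and fitted fold of IP over input (x axis), with 1 line for each mean IP level. The lines are ordered by IP level at every ratio, from 0.061% to 1.89% under 1 CPM up to 21.6% to 49.0% at 100 CPM or more.

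Ammonium peaks were mostly narrow and spread widely in position. The median width was 198 bases (quartiles 142 and 335, range 90 to 2228), and 1526 peaks were under 125 bases wide, against 358 of 525 or more. The start had a median of position 396 (quartiles 149 and 1039), the lowest at 45 and the highest at 11292. The centre lay before base 250 in 21.8% of the peaks, from 250 to under 500 in 27.8%, from 500 to under 1000 in 21.2%, from 1000 to under 2000 in 17.8% and at 2000 or beyond in 11.4%. Positions are counted from the first base of an ID. The files give neither the length nor the reading frame of a transcript, nor the strand of the assembled sequence, so the beginning of an ID may not be the beginning of the messenger RNA, and no peak was placed relative to a stop codon.

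Widths and positions followed a grid. Within 3 bases of a multiple of 50 lay 63.8% of the widths and 41.1% of the starts, and no peak was narrower than 90 bases or started before base 45. Differences in position or width of under about 50 bases are therefore below what the list resolves.

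The widest peak, at positions 50 to 2277 of pp_205228, had a fold of 14.0 in the authors' deposited table, and a second peak followed at 2376 to 2524. In the water list, 1 peak from 50 to 2524 covered both. The transcript had 23.3, 38.0 and 16.7 CPM in the ammonium IP and 0.877, 0.943 and 0.765 in the ammonium inputs. The most distal peak, at positions 11292 to 11491 of pp_100243, stood at the same place in both lists, with folds of 79.8 in ammonium and 131 in water. That transcript had 69.4, 53.3 and 63.1 CPM in the ammonium IP and 294.5, 363 and 385 in the inputs, so the IP libraries lay below all inputs around a listed site of high fold.

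**Figure D4:**
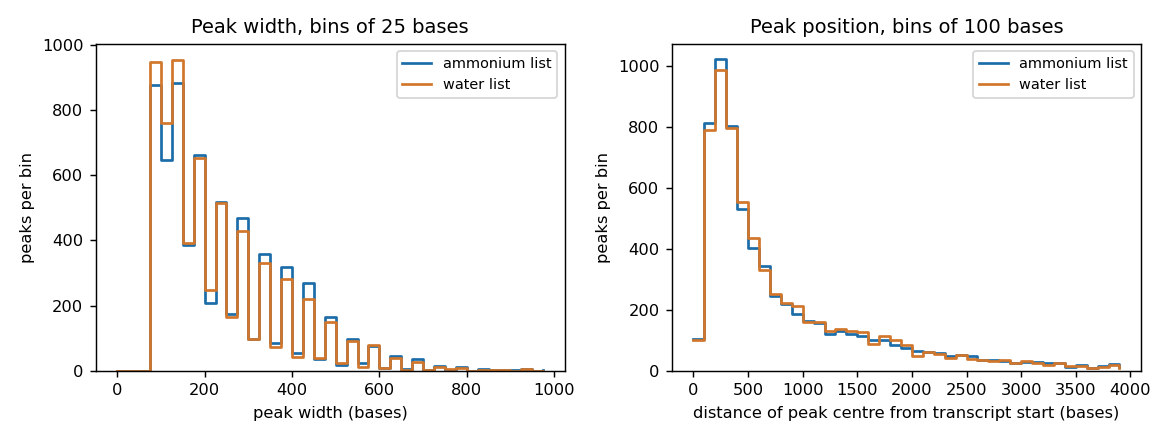
Number of peaks by width in bins of 25 bases (left, shown to 1000 bases) and by distance of the peak centre from the start of the transcript ID in bins of 100 bases (right, shown to 4000 bases), for the ammonium and water lists. Widths alternate between full and sparse bins along the grid of 50 bases, and both lists are fullest from 200 to 300 bases from the start.

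Wider peaks carried higher folds and lay on more abundant transcripts. Among the transcripts with 1 peak, width and the authors' fold correlated at a Spearman rho of 0.61 (n = 5634) and width and the mean IP level at 0.59 (n = 5628). These values are across transcripts, which share libraries and depth. The median fold was 5.67 for peaks under 125 bases, 11.8 for 175 to under 225 bases and 45.7 for 525 or more, and the median IP level rose with them from 3.34 to 8.50 and 79.4 CPM.

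The IP/input of the whole transcript followed neither width nor fold in the same way. Its median log2 was 2.42 with a peak under 125 bases, 1.87 at 225 to under 325 bases and 2.32 at 525 or more. Its Spearman rho was -0.11 with width and -0.06 with the authors' fold. In the 2814 of these transcripts with the higher mean CPM the values were 0.21 and 0.40, so the sign depended on which transcripts were taken. The share called lower fell from 12.9% for peaks under 125 bases to 0.645% for those of 525 or more (2 of 310), against the 48.5% of all tested.

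Position separated the transcripts more clearly. With 1 peak centred before base 250, the median log2 IP/input was 3.27, 3.10 and 3.23 for replicates 1, 2 and 3. From 500 to under 1000 bases it was 2.26, 2.19 and 2.23, and at 2000 or beyond it was 0.70, 0.42 and 0.49. No 2 of these classes overlapped between replicates. The share called lower was 6.65% before base 250 and 25.7% at 2000 or beyond (153 of 595). It was 9.83% of all tested transcripts with 1 peak and 48.5% of all tested. A peak far along an ID can only lie on a long transcript, so position and length cannot be told apart here. The input level also differed, with a median of 0.855 CPM before base 250 and 23.4 at 2000 or beyond. The IP had 5.12 and 23.9 CPM. A peak needs IP reads, so a transcript of very low input that has a peak tends to a high ratio.

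The far peaks stood lowest at each level of abundance. In 3 equal groups of low, middle and high mean CPM, transcripts with a peak at 2000 or beyond had medians of 0.41, 0.40 and 0.74. Before base 250 the medians were 5.45, 1.33 and 1.59. In the low group the median fell with each step of position, whereas in the high group it was highest from 500 to under 1000 bases, at 2.21. The mean CPM includes the IP and a peak needs IP reads, so the values of the low group are a description only. The 553 single-peak transcripts called lower had their peak at a median start of 1049, against 300 for the 4537 called higher, and a median width of 150 against 201 bases. Both were picked by the counts, so these values describe them and are no test.

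**Figure D5:**
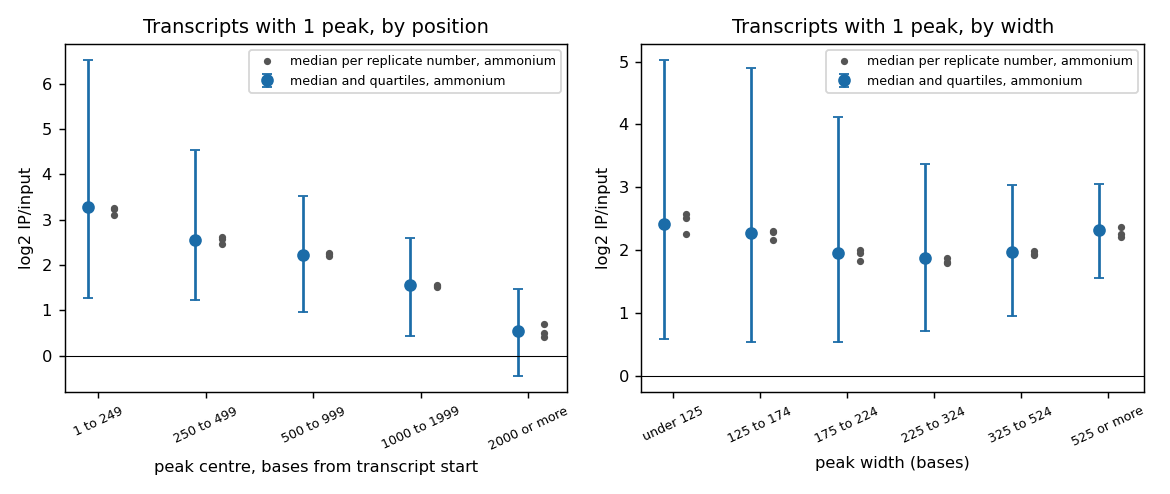
Log2 IP/input in ammonium of the 5628 tested transcripts with 1 peak, by position of the peak centre (left) and by peak width (right). Large points and bars give the fitted median and quartiles over transcripts, and small points the median of each replicate number. The medians fall from 3.27 to 0.55 along the position and stay between 1.87 and 2.42 along the width.

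In transcripts with several peaks, the peaks lay close together. The 441 such transcripts had 514 gaps between neighbours, with a median of 147 bases (quartiles 98 and 244), and 80.0% of the gaps were under 250 bases. No gap was under 91 bases. The peaks of a transcript covered a median of 398 bases in a stretch of 595, where a single peak covered 199. Peaks of transcripts with 2 peaks had a median width of 151 bases and a median fold of 7.74, against 199 and 14.3 for single peaks. With 2 peaks, the higher fold was in the first peak of 210 transcripts and in the second of 174, with equal folds in 8. In 294 of the 441, all peaks carried the same p in the authors' deposited table. It was 0 for all peaks of 67 transcripts and the same value above 0 in 227.

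Whether single transcripts changed their ratio between ammonium and water roots depended on the tool. The edgeR test called 0 of 148273 transcripts (0%) and DESeq2 called 50, of which 3 were higher and 47 lower. Before adjustment, 13109 had a p under 0.05 in edgeR (8.84%). The next counts are of transcripts that were also tested for IP against input in ammonium. With 1 ammonium peak, 982 of 5628 had an unadjusted p under 0.05, and without a peak 10785 of 117821. The peaks were called on ammonium libraries that enter this test, which favours a difference at transcripts with a peak. These counts are therefore a description only. With edgeR, 28 were called without replicate 2 of the water IP. By rule, pp_141822 is named as first by p on the lower side: its ammonium IP had 0.448, 0.451 and 0.564 CPM and its water IP 14.5, 6.61 and 3.35, around inputs of 2.07 to 2.56 and 2.26 to 3.10. The IP thus lay below the inputs in all ammonium libraries and above them in all water libraries, with an adjusted p of 0.556 for the change in edgeR (log2 -3.52, SE 0.57) and of 1.09e-05 in DESeq2 (log2 -3.53). Over the edgeR alternatives its adjusted p was 0.0555 to 0.73. On the higher side, pp_133143 had 10, 5 and 6 reads in the ammonium IP and 0 in the 3 water IP libraries, too few for a fold, and an adjusted p of 0.556 in edgeR and 0.0486 in DESeq2.

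The 2 lists placed most shared sites alike. Of the ammonium peaks, 5328 (80.9%, 95% Wilson interval 79.9 to 81.8, counting error only) overlapped a water peak by at least 1 base. In the 5111 pairs that matched 1 to 1, 2664 had the same start and end, and 94.7% had centres within 50 bases. The ammonium peak was wider in 1460 pairs and narrower in 903. Over all 5111 pairs the median width was 242 bases in ammonium and 200 in water, which differ by less than the 50-base grid resolves. The 1261 ammonium peaks without overlap were narrow, with a median of 101 bases. There is 1 list per treatment, so the difference in width has no replicates. The water IP held 57945305 to 63522543 counts, fewer than any ammonium IP, and the part of depth in the width was not tested.

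Transcripts in both lists mostly kept their number of peaks: 4602 of 4966 (92.7%) had the same number, 127 had more in ammonium and 237 more in water. Of the 127, 42 had 2 or more ammonium peaks overlapping a single water peak, as pp_206359 did, and of the 237, 112 had 2 or more water peaks overlapping a single ammonium peak. Along the position, the median log2 IP/input dropped from peaks before base 250 to those at 2000 or beyond. The drop was 2.66 ± 0.09 in ammonium and 2.68 ± 0.12 in water (SD, n = 3). Both values are of the single-peak transcripts of the ammonium list, so no test between treatments is given.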

How the data were processed

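Whole-number read counts per transcript ID, without normalization, were deposited by the authors for 12 libraries. Bcl2fastq and BWA are named in the submitters' processing notes. The sources used here do not give versions, the peak caller, the reference or how reads shared between IDs were counted. IDs of similar sequence may therefore share reads. Fold enrichment (a ratio) and p-value of a peak are the authors' own, per the file headers; the p-value was listed as 0 for 1359 ammonium peaks. Peak starts were shifted by 1 base, because widths equal end minus start. The remaining position columns were used as deposited.

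The tests on these counts used edgeR 4.0.16 under R 4.3.3 (trimmed mean of M-values, minimum count 10 and minimum total 15, robust quasi-likelihood F tests, two-sided, Benjamini-Hochberg adjustment over all transcripts tested, threshold 0.05). IP against input used the 6 ammonium libraries, and the change between treatments all 12. DESeq2 1.42.0 was an alternative. Ratios per replicate number used effective library sizes and a prior count of 0.5. In simulated counts for 123957 transcripts of this comparison, 99.0% of 4-fold and 10.2% of 2-fold changes were recovered, with 4 false calls. Only 102 transcripts were changed 4-fold and 98 2-fold, none of low mean level, and all shared a common dispersion. In the real counts 86.4% of the transcripts were called, so these rates do not give the recovery in the real comparison.

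Samples were grouped by title. The lists of members, the classes and the rule for named transcripts were chosen with earlier results of these data known. The rule named the transcript with the most peaks, the most abundant called transcript of each direction with or without a peak (higher only without), the widest and the most distal peak, and the first by p in each direction for the change between treatments. Gene lists planned for m6A enzymes, ammonium assimilation and root or shoot markers were not used, since IDs are not paired with names. Sequences were not analysed here.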

Additional observations from a re-analysis of the deposited data

How the results depend on the processing

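Calls of IP against input kept within 1.5 times under the alternatives except with at least 50 reads in 3 libraries, where 76908 transcripts were tested and 69539 called (30258 higher, 39281 lower). Omission of 1 library gave 110101 to 113193 calls, 48155 to 51311 higher and 58886 to 64680 lower.

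The distance of transcripts with 1, 2 and 3 or more peaks from those without (medians of fitted log2 ratios) was 3.12, 3.10 and 4.17. It was 2.51, 2.49 and 3.56 without a filter, 3.28, 3.36 and 4.45 with at least 50 reads, and 2.96, 3.31 and 5.38 with peaks of at least 10-fold (5 transcripts in the last class). Omission of 1 library gave 2.73 to 3.35, 2.72 to 3.36 and 3.76 to 4.47.

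The top abundance bin lay 1.75 above all transcripts, and 1.84 with DESeq2-type factors, 1.49 with library size scaling, 0.78 without a filter, 2.25 with at least 50 reads, 1.80 with the replicate block and 1.54 to 1.68 with 1 library omitted. Ranked by the water inputs it was -0.44 and by the ammonium inputs -0.42. The lowest bin lay at -0.96, and at -1.29, 0.29, 0.88, -2.74 and -1.10 under the same 5 settings, 7.96 and 8.13 by the 2 rankings, and -1.46 to -0.27 with 1 library omitted. The cause of these reversals was not tested beyond the ranking itself.

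The share of reads on transcripts with a peak differed by 18.4 to 18.6 percentage points with 1 library omitted and by 17.9 with peaks of at least 10-fold. The share in the top 100 and top 1000 transcripts differed by 3.13 to 3.42 and 10.5 to 10.8. Transcripts with at least 1 read differed by -13894.8 to -8445.3, and those with at least 10 reads by -18542.5 to -15236.3, or -13718.7 after thinning.

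Peaks of at least 10-fold had a median width of 293 bases, a median start of 451 and 94.4% overlap with water. The 3294 peaks with the smallest p, of 6589, had 250, 447.5 and 87.9%. Overlap of 50% of both peaks gave 76.1%. The change between treatments gave 50 calls with DESeq2, 0 to 28 with 1 library omitted and 0 otherwise.

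Same-numbered IP and input deviated together at r of 0.098, 0.057 and 0.072, and pairs of unlike number at -0.071 to 0.010. Each IP correlated best with the input of its own number. The values are small, and the labels do not say whether a shared number means a shared origin, so pairing was left undecided. With the replicate number as a block, 103259 transcripts were called, 45441 higher and 57818 lower. How recovery depends on depth was not measured. Changes of the ratio between treatments had a median SE of 1.03.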
